A study of Homo sapiens with 4 samples.

Results

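The genes examined encode the nuclear-encoded subunits of the mitochondrial oxidative phosphorylation complexes I to V in U251 cells. They were chosen by symbol, as every gene of the count table whose symbol follows the NDUFA, NDUFB, NDUFC, NDUFS or NDUFV series, the SDH genes, CYC1, or the UQCR, COX4 to COX8 and ATP5 series. This gave 85 of the 15575 genes in the table. Of these, 78 had enough counts to be tested, and 75 of the 78 encode subunits.

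U251 is an established human glioblastoma (GBM) cell line. RNA-seq of total RNA was available for 2 Ctrl libraries and 2 PRMT3-KD libraries. By the study's description, Ctrl cells carried a lentiviral control shRNA and PRMT3-KD cells a lentiviral shRNA against PRMT3, an arginine methyltransferase. The sample titles name pGreen for the 2 Ctrl libraries only and do not otherwise name a vector or hairpin. Whether the groups differed in vector cannot be told from them. The shRNA sequence used for these libraries is not named in the sources used here, and the labels do not state whether the 2 libraries of a group came from separate cultures, so the p-values measure the spread between these libraries, which may be technical.

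The mitochondrial respiratory chain passes electrons from NADH (through complex I) and from succinate (through complex II) to ubiquinone, complex III, cytochrome c and complex IV, where oxygen is reduced. Complexes I, III and IV pump protons across the inner membrane, and complex V, the ATP synthase, uses the return of these protons to make ATP. Complex II is wholly nuclear-encoded, and the other complexes each combine nuclear-encoded subunits with a few encoded by mitochondrial DNA. Many GBM cells have a high rate of glycolysis, and oxidative phosphorylation is the other main route to ATP in these cells.

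Total counts per library were between 24804250 and 29756313. Expression is given as CPM (counts scaled to a common library total, with edgeR's TMM factors of 0.955 to 1.02), and changes as log2 fold changes of PRMT3-KD over Ctrl. A gene was called when its adjusted p was under 0.05 in edgeR's quasi-likelihood F test, with Benjamini-Hochberg adjustment across all 13172 genes tested. The targeted gene PRMT3 had 535 counts in each Ctrl library, 77 counts in PRMT3-KD library 1 and 45 in library 2, a log2 fold change of -3.08 ± 0.314 (SE; adjusted p = 0.0177, edgeR). The PRMT3-KD libraries differed from each other far more than the Ctrl libraries did, with a chi-square per degree of freedom of 66.7 against 1.41, where counting error alone gives about 1. VIM, CD44, NES, SOX2 and EGFR, markers of glioma cells, were at 132 CPM or more in all 4 libraries. Of the other 4 markers of that list, S100B was at 1.93 to 2.82 CPM, and FABP7 was at 34.7 and 33.5 CPM in Ctrl and at 14.7 and 23.9 CPM in PRMT3-KD libraries (adjusted p = 0.0882, edgeR). The astroglial marker GFAP was at 13.1 and 14.3 CPM in Ctrl and at 1.26 and 5.39 CPM in PRMT3-KD libraries (adjusted p = 0.0958, edgeR), and SOX9 was lower in PRMT3-KD cells with a log2 fold change of -0.65 (adjusted p = 0.0215, edgeR). Of 14 markers of other brain or blood cells, 3 (CD68, SYT1 and SNAP25) passed the filter on low counts. The part of these differences in the results was not tested. In bulk RNA, fewer cells with an mRNA and less of that mRNA per cell cannot be told apart.

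Most subunit mRNAs differed little between PRMT3-KD and Ctrl cells, and a few small or membrane-anchoring subunits stood apart with large decreases. Of the 78 members tested, 3 rose (NDUFB5, NDUFC2 and UQCRB) and 5 fell (COX7B, UQCR11, SDHD, COX7A2 and ATP5G2). These are 3.85% and 6.41% of the members, where 8.39% of all genes tested were called higher and 8.91% lower. With a change of over 1.5-fold required as well, 1 member was called higher and 3 lower, against 4.97% and 5.97% of all genes. The median log2 fold change of the members was 0.12, against 0.0055 for all genes tested, and 59 of the 78 members (75.6%) had a value above 0, against 50.5% of all genes. Both PRMT3-KD libraries lay above both Ctrl libraries for 42 members (53.8%, against 33.3% of all genes) and below both for 14 (17.9%, against 33.8% of all genes). Without PRMT3-KD library 1, 47 of the 80 members then tested were above 0 (6578 of 13408 genes). Without PRMT3-KD library 2, 60 of 80 were above 0 (6654 of 13423 genes). Against the Ctrl mean, PRMT3-KD library 1 had a members' median of 0.17 and PRMT3-KD library 2 one of 0.07. This small shift was thus not of the same size in the 2 libraries. The median standard error was 0.087 for the members and 0.135 for all genes, so a single member at the members' median lay within 2 standard errors of 0. With library totals in place of TMM factors, 57 of the 78 values were above 0, and 0 members were called higher and 4 lower (edgeR, with 5 higher and 7 lower at an unadjusted p under 0.05), against 5.62% and 7.48% of all genes (15.7% and 18.6% unadjusted).

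**Figure D1:**
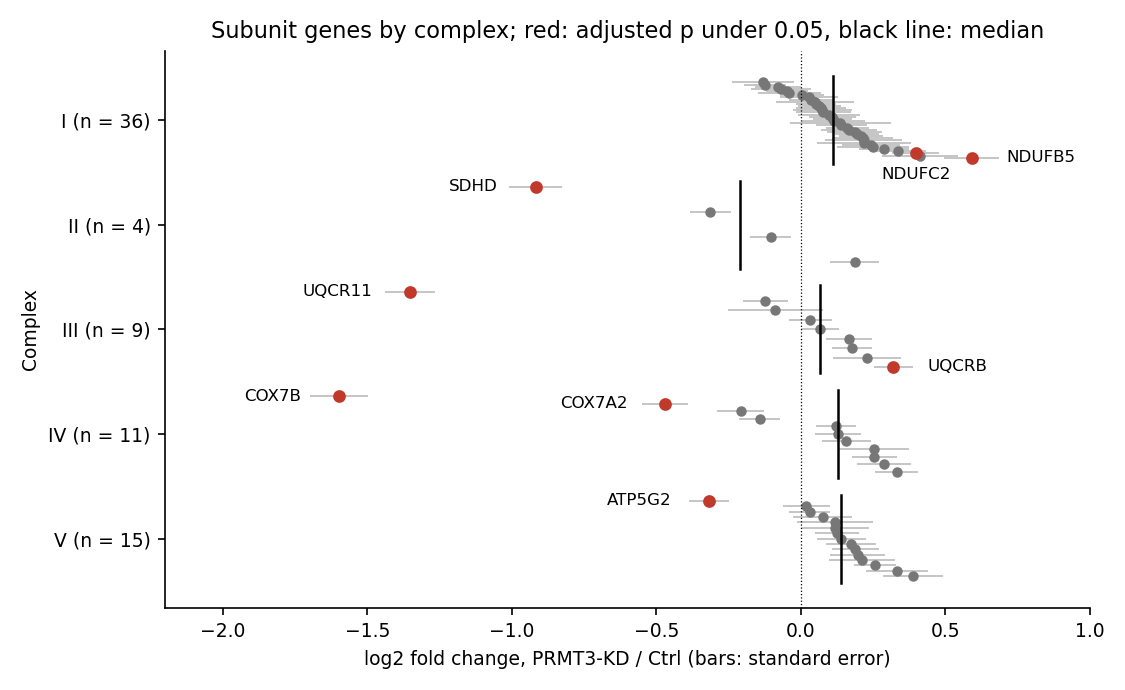
The log2 fold change (PRMT3-KD over Ctrl, x axis) of the 75 tested subunit genes is drawn for complexes I to V, with bars for the standard error, black lines for each complex's median and red points for adjusted p under 0.05. COX7B, UQCR11 and SDHD lie far to the left of the other subunits, while 30 of the 36 complex I genes lie to the right of 0.

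The calls on single members were made only with both Ctrl libraries in the fit. Without Ctrl library 1 or without Ctrl library 2, edgeR called 0 of all genes, and the adjusted p of COX7B was then 0.0764 and 0.0604. At an unadjusted p under 0.05, 1 member was higher and 3 lower without Ctrl library 1, and 1 was higher and 4 lower without Ctrl library 2, where 6.16% to 6.24% of all genes were higher and 7.59% to 7.68% lower. Without PRMT3-KD library 1, 32 members were called higher and 17 lower, and without PRMT3-KD library 2, 48 and 10. The same fits called 33.4% and 33% of all genes higher and 32.5% and 32.7% lower. In these fits the lone library of a group is assumed to vary like the other group, and the 2 Ctrl libraries vary little.

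COX7B, one of the small nuclear-encoded subunits of cytochrome c oxidase (complex IV), had the largest decrease of all members. Its mRNA was at 93.3 and 92.3 CPM in the Ctrl libraries and at 32.8 and 28.5 CPM in the PRMT3-KD libraries. The groups were far apart, and each PRMT3-KD library alone showed the decrease. The log2 fold change was -1.60 ± 0.0992 (SE; adjusted p = 0.0140, edgeR). COX7B lies on chromosome X of GRCh37 (the hg19 build) from 77154937 to 77162873, and the annotation holds 4 pseudogenes with which it could share reads.

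UQCR11, the smallest subunit of the cytochrome bc1 complex (complex III), was at 47.4 and 47.5 CPM in Ctrl and at 19.1 and 18.1 CPM in PRMT3-KD libraries. The difference within each group was small beside that between the groups. The log2 fold change was -1.35 ± 0.0870 (SE; adjusted p = 0.0140, edgeR). UQCR11 lies on chromosome 19 from 1597168 to 1605472 on the minus strand. Its exons are shared with an annotated readthrough gene on the same strand, and the counting of reads from such overlaps is not given in the sources used here.

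SDHD, which with SDHC anchors succinate dehydrogenase (complex II) in the inner membrane, was at 43.8 and 45.2 CPM in Ctrl and at 22.5 and 24.6 CPM in PRMT3-KD libraries. Both PRMT3-KD libraries were well below both Ctrl libraries. The log2 fold change was -0.92 ± 0.0928 (SE; adjusted p = 0.0172, edgeR). SDHD lies on chromosome 11 from 111957548 to 111990739, overlaps another annotated gene on the same strand, and has 6 annotated pseudogenes.

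COX7A2, the widely expressed isoform of another small complex IV subunit, and ATP5G2, one of the 3 genes for the c subunit of the ATP synthase rotor, fell less. COX7A2 was at 90.1 and 83.8 CPM in Ctrl and at 64.1 and 61.4 CPM in PRMT3-KD libraries, a log2 fold change of -0.47 ± 0.0803 (SE; adjusted p = 0.0315, edgeR). ATP5G2 was at 103.6 and 102.5 CPM in Ctrl and at 81.6 and 83.7 CPM in PRMT3-KD libraries, a log2 fold change of -0.32 ± 0.0688 (SE; adjusted p = 0.0470, edgeR). The groups did not overlap for either gene. The call of ATP5G2 did not hold with DESeq2 (adjusted p = 0.0895).

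The 3 members that rose belong to complexes I and III. NDUFB5, an accessory subunit in the distal part of the complex I membrane arm, was at 53.8 and 51.2 CPM in Ctrl and at 84.0 and 74.1 CPM in PRMT3-KD libraries, a log2 fold change of 0.59 ± 0.0960 (SE; adjusted p = 0.0293, edgeR). NDUFC2, an accessory subunit of the membrane arm, was at 70.9 and 67.7 CPM in Ctrl and at 95.02 and 87.5 CPM in PRMT3-KD libraries, a log2 fold change of 0.40 ± 0.0823 (SE; adjusted p = 0.0432, edgeR). PRMT3-KD library 1 was the higher of the pair for both genes. UQCRB, a small subunit of complex III next to the ubiquinone-binding region, was at 115.3 and 112.3 CPM in Ctrl and at 142.7 and 141.4 CPM in PRMT3-KD libraries, a log2 fold change of 0.32 ± 0.0677 (SE; adjusted p = 0.0448, edgeR). The call of UQCRB did not hold with DESeq2 (adjusted p = 0.0673), and with library totals none of the 3 increases passed, with adjusted p of 0.0547, 0.0936 and 0.0916 (edgeR). NDUFB5 shares exons with another annotated gene on the same strand, NDUFC2 with the readthrough gene NDUFC2-KCTD14. Just outside the threshold were COX6C of complex IV, with a log2 fold change of 0.33 (adjusted p = 0.0508, edgeR), and SDHA, with -0.31 (adjusted p = 0.0518, edgeR).

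**Figure D2:**
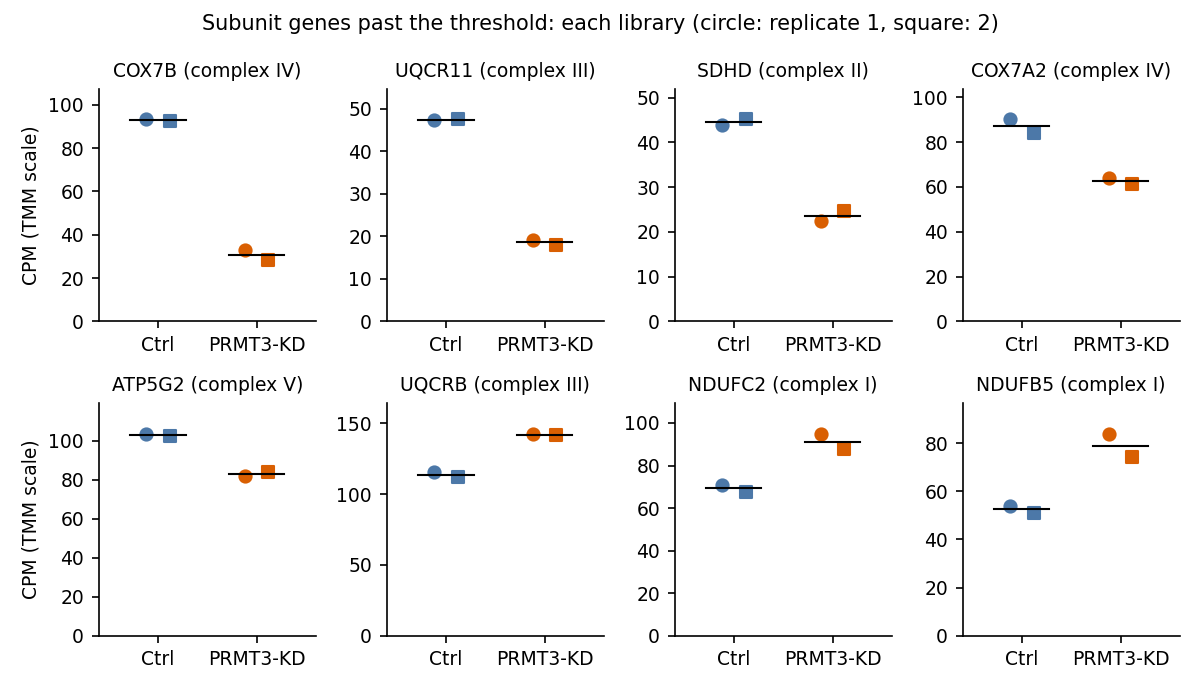
CPM on the TMM scale (y axis, from 0) is shown in each Ctrl and PRMT3-KD library for the 8 members past the threshold, with circles for replicate 1, squares for replicate 2 and lines for the group means. The groups do not overlap in any panel, and COX7B, UQCR11 and SDHD show the widest gaps.

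Complex I, the NADH dehydrogenase, had 36 members tested, of which 2 were called higher. No complex I gene was called lower by edgeR or DESeq2, and at an unadjusted p under 0.05 edgeR gave 6 higher and 0 lower of 36, where 19.1% of all genes tested were higher and 18.5% lower at that threshold. The log2 fold changes ran from -0.13 (NDUFV1) to 0.59 (NDUFB5), with a median of 0.11. Above 0 were 30 of the 36, while without PRMT3-KD library 1, 22 were above 0 and 14 below. NDUFV1, the subunit that binds NADH and the flavin, was at 89.9 and 92.6 CPM in Ctrl and at 90.3 and 76.4 CPM in PRMT3-KD libraries, so its groups overlapped (adjusted p = 0.428, edgeR). The 7 core subunits, which carry the flavin, the iron-sulfur clusters and the ubiquinone-reducing site, had a median of 0.10, and the 29 accessory subunits, which surround the core, had a median of 0.11. For the core, PRMT3-KD library 1 gave 0.21 and PRMT3-KD library 2 gave -0.03, so the sign rested on library 1, and for the accessory subunits they gave 0.17 and 0.09. Both calls were on accessory subunits. The 5 accessory subunits of the NADH-oxidizing module had a median of 0.21 and the 4 of the ubiquinone-reducing module a median of 0.04 (0.09 with PRMT3-KD library 1 alone, -0.06 with PRMT3-KD library 2 alone). All 5 of the former, among them NDUFS4 (0.34, adjusted p = 0.0800) and NDUFA2 (0.22, adjusted p = 0.306, both edgeR), were above both Ctrl libraries in both PRMT3-KD libraries, but none of the 5 was called. The same held for 19 of the 36 complex I genes and for 33.3% of all genes tested. NDUFS5 had the highest level per length of complex I, at 277 RPKM (CPM divided by the length of the canonical transcript in kilobases) in Ctrl and 305 RPKM in PRMT3-KD cells, and its log2 fold change of 0.14 did not pass the test (adjusted p = 0.318, edgeR).

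The 4 subunits of complex II did not follow one direction. SDHA, which holds the flavin and the succinate-binding site, was at 126.8 and 133.9 CPM in Ctrl and at 104.9 CPM in each PRMT3-KD library (log2 fold change -0.31, adjusted p = 0.0518, edgeR). SDHB, which carries the iron-sulfur clusters, was at 98.5 and 97.6 CPM in Ctrl and at 92.9 and 89.5 CPM in PRMT3-KD libraries, with a log2 fold change of -0.10 ± 0.0699 (SE; adjusted p = 0.339, edgeR). SDHC, the partner of SDHD in the membrane anchor, was at 72.2 and 71.8 CPM in Ctrl and at 77.7 and 86.2 CPM in PRMT3-KD libraries, with a log2 fold change of 0.19 ± 0.0851 (SE; adjusted p = 0.191, edgeR). The anchor genes SDHC and SDHD thus had values of opposite sign, and of the 4 genes SDHD alone passed the test. SDHB had the highest level per length of the complex, at 96.6 RPKM in Ctrl with the canonical transcript length, while SDHC was highest, at 157 RPKM, with the median length of its basic transcripts.

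In complex III, 9 members were tested, with 1 called higher and 1 lower (8.39% and 8.91% of all genes) and a median log2 fold change of 0.07. The range ran from UQCR11 at -1.35 to UQCRB at 0.32. UQCRC1, a core subunit, had the highest level per length of the complex, at 208 RPKM in Ctrl and 218 RPKM in PRMT3-KD cells, with a log2 fold change of 0.07 ± 0.0657 (SE; adjusted p = 0.518, edgeR). CYC1, the cytochrome c1 subunit that hands electrons to cytochrome c, was at 107.8 and 109.1 CPM in Ctrl, and the PRMT3-KD libraries lay on either side of these, at 117.8 and 86.2 CPM. CYCS, the cytochrome c of somatic cells, had a log2 fold change of -0.06 (adjusted p = 0.616, edgeR).

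Complex IV had 11 tested subunits, counting NDUFA4, which was first described in complex I. COX7B and COX7A2 were called lower, and the median was 0.13. edgeR and DESeq2 each called 0 of its subunits higher, and at an unadjusted p under 0.05 edgeR gave 3 higher and 2 lower of 11 (19.1% and 18.5% of all genes). COX6C had the highest log2 fold change. COX4I1, a regulatory subunit, had the highest level per length of complex IV with the canonical transcript, at 289 RPKM in Ctrl and 315 RPKM in PRMT3-KD cells, while its isoform COX4I2, known for expression in lung and in low oxygen, had 0, 0, 1 and 0 counts. COX6A1 was at 148.7 and 156.7 CPM in Ctrl and at 137.7 and 139.0 CPM in PRMT3-KD libraries (log2 fold change -0.14, adjusted p = 0.221, edgeR). COX6B1 was at 107.3 and 108.1 CPM in Ctrl and at 133.9 and 123.0 CPM in PRMT3-KD libraries (log2 fold change 0.25, adjusted p = 0.0919, edgeR), and its testis isoform COX6B2 had 6 to 12 counts a library. In both isoform pairs the widely expressed form made up nearly all counts in both groups. COX6A2, COX7A1 and COX7B2, isoforms known from muscle or testis, were not analysed here.

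Complex V had 15 tested subunits, of which ATP5G2 was called lower, while 14 had a log2 fold change above 0. edgeR and DESeq2 each called 0 higher, and at an unadjusted p under 0.05 edgeR gave 3 higher and 1 lower of 15 (19.1% and 18.5% of all genes). Without PRMT3-KD library 1, 9 of the 15 values were above 0 and 6 below. The 5 genes of the F1 head and central stalk ran from 0.08 (ATP5B) to 0.26 (ATP5A1), and the 4 of the peripheral stalk from 0.13 (ATP5J) to 0.21 (ATP5H). ATP5J2, the f subunit in the membrane, had the highest value, with 123.9 and 117.9 CPM in Ctrl and 170.7 and 145.5 CPM in PRMT3-KD libraries (log2 fold change 0.39 ± 0.104 (SE), adjusted p = 0.0710, edgeR), and the highest level per length, at 273 RPKM in Ctrl. ATP5B, the catalytic beta subunit, was at 474.6 and 474.7 CPM in Ctrl, and the PRMT3-KD libraries lay on either side of these, at 541.4 and 458.7 CPM.

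The 3 c ring genes encode the same mature protein behind different import sequences. ATP5G2 fell, as above. ATP5G1 was at 33.4 and 33.8 CPM in Ctrl and at 40.6 and 36.5 CPM in PRMT3-KD libraries, with a log2 fold change of 0.20 ± 0.0944 (SE; adjusted p = 0.208, edgeR). ATP5G3 was at 95.9 and 104.8 CPM in Ctrl and at 135.9 and 117.1 CPM in PRMT3-KD libraries, with 0.33 ± 0.107 (SE; adjusted p = 0.0995, edgeR). ATP5G1 and ATP5G3, whose PRMT3-KD values all exceeded the Ctrl values, thus differed in sign from ATP5G2 but did not pass the test, and the difference between the 3 genes was not tested.

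Summed over the 75 subunits, mRNA was at 6437 and 6388 CPM in Ctrl and at 7026 and 6513 CPM in PRMT3-KD libraries, 5.50% higher on average. The sums were higher by 8.58% for complex I, 4.44% for complex III and 9.92% for complex V, and differed by -12.57% for complex II. For complex IV, the Ctrl libraries (1153 and 1145 CPM) lay between the PRMT3-KD libraries (1176 and 1103 CPM). Without its most decreased gene, the sum of complex IV was 4.95% higher, that of complex III 7.75% higher, and that of complex II differed by -7.46%. An exact permutation test (two-sided, 2 Ctrl against 2 PRMT3-KD libraries) gave p = 0.333 for every complex other than IV (p = 1.0), and 0.333 is the smallest p it can give. The mean of the log2 CPM over the subunits, which weights every gene alike, turned the direction for complex III, to -0.07. In each complex, PRMT3-KD library 1 was above library 2 other than in complex II, where library 2 was the higher.

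The remaining 10 of the 85 genes were related proteins, pseudogenes or isoforms at very low level. COX7A2L, a protein related to COX7A2 that joins complexes III and IV, had a log2 fold change of 0.25 (adjusted p = 0.113, edgeR). ATP5S and ATP5SL carry ATP5 symbols but are not subunits, being assembly-related proteins (now DMAC2L and DMAC2), with log2 fold changes of -0.56 for ATP5S (adjusted p = 0.0991) and -0.09 for ATP5SL (adjusted p = 0.508, both edgeR). COX4I2, COX6B2, COX8C and UQCRHL, isoforms or paralogs with at most 12 counts in any library, and the pseudogenes ATP5LP6, COX6A1P2 and UQCRHP1 were too low to test. Subunits encoded by the mitochondrial genome had 0 rows in the table, so the mitochondrial-encoded partners of these proteins were not analysed here.

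The 3′ UTRs of the members that fell are shown next because earlier results of these data pointed to the letters CAGCTCA in genes that were lower in PRMT3-KD cells, so the match below is a description and no independent support. The letters were searched on the sense strand of the 3′ UTR of the canonical transcript, in the last exon of each gene shown. COX7B held 2 copies, 38 and 298 bases after the stop codon, and UQCR11 held 1, at 114 bases. SDHD held 2 copies of the shorter AGCTCA, at 67 and 525 bases, without the leading C. SDHB, which did not pass the test, is given for comparison with 1 copy at 30 bases. Capitals mark the searched letters, all sequences run 5′ to 3′ on the gene's own strand, and coordinates are of GRCh37.

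COX7B first copy, chrX:77160786-77160812, plus strand: gtttaaaaaaCAGCTCAtaattgatgc

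COX7B second copy, chrX:77161046-77161072, plus strand: ggcaccatctCAGCTCActgcgacctc

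UQCR11, chr19:1598113-1598139, minus strand: aggaaacccaCAGCTCAgcttcaggct

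SDHD first copy, chr11:111965751-111965776, plus strand: catgccattaAGCTCAcaataaggaa

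SDHD second copy, chr11:111966209-111966234, plus strand: aaatgctgatAGCTCAtattataaat

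SDHB, chr1:17345330-17345356, minus strand: gatttataacCAGCTCAgagctgaaca

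Of the 77 tested members with a 3′ UTR in the annotation, 8 (10.4%) held CAGCTCA, against 17.4% of 12758 genes tested. Their median log2 fold change was -0.11, against 0.13 for the 69 members without it. Over all genes the medians were -0.11 with the letters and 0.03 without them, and genes with them had longer 3′ UTRs (median 3216 against 1114 bases). Among the members the median lengths were 2930 bases with the letters and 189 without them, so most members had short 3′ UTRs. The part of 3′ UTR length in these shares and medians was not tested. Besides COX7B and UQCR11, the 8 were SDHA with 3 copies (log2 fold change -0.31), NDUFA10 (-0.12), SDHB (-0.10), NDUFV3 (0.19), NDUFS1 with 2 copies (0.21) and ATP5A1 with 2 copies (0.26), none of which passed the test. The match alone thus went with values of both signs. COX7A2 and ATP5G2, which also fell, held neither of the searched sequences. The shorter AGCTCA was in 17 members (22.1%, against 36.2% of all genes), including UQCRB, which rose. The reverse complement TGAGCTG, searched as a control sequence, was in 4 members (5.19%, against 20.3%), whose median was 0.15.

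**Figure D3:**
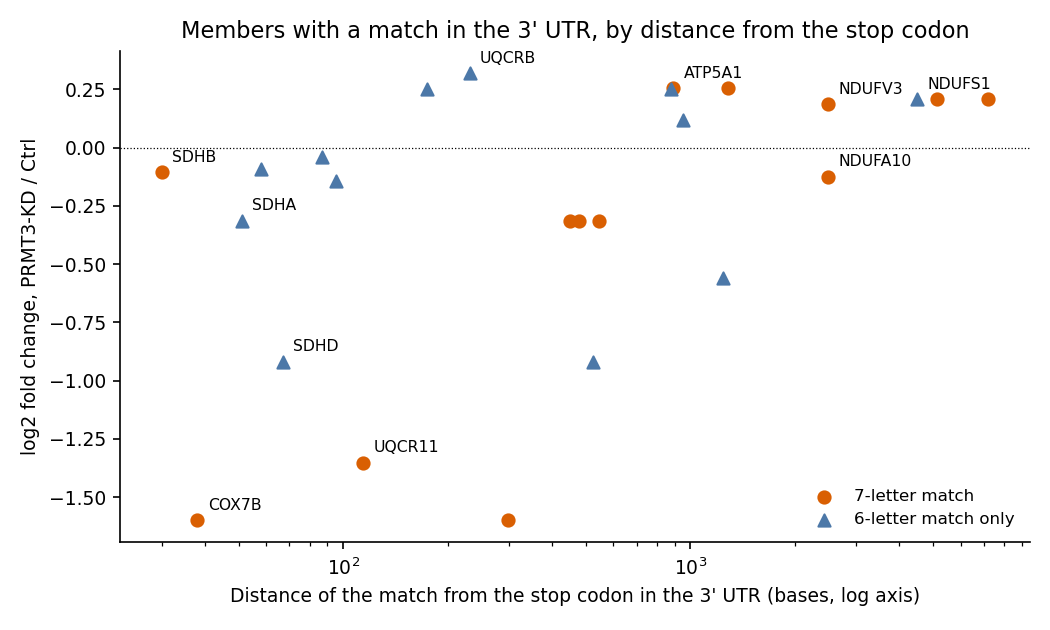
Each point is a match in the 3′ UTR of a tested member, placed by its distance from the stop codon (x axis, log scale, bases) and the gene's log2 fold change (y axis), with orange circles for the 7-letter match and blue triangles for the 6-letter match alone. COX7B, UQCR11 and SDHD lie lowest, while matches beyond 2000 bases lie between -0.12 and 0.21.

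Promoters of these genes are known for binding sites of NRF1, GABPA and YY1, factors that activate many respiratory chain genes. In RefSeq promoters (build GRCh38.p14, 250 bases before to 50 after the start), 63 of the 78 members had an entry. Both strands were searched. The NRF1 motif (2 GCGC repeats joined by A and any 1 base) was in 15 of the 63 (23.8%, against 11.6% of the promoters of genes tested), the GABPA letters CCGGAAG in 19 (30.2%, against 18.8%) and the YY1 letters AAGATGGC in 11 (17.5%, against 5.36%). NDUFB5, NDUFC2 and UQCRB, the members that rose, had no entry and were not searched. Matches were in members that fell and in members that did not pass the test. UQCR11 and SDHD held both the NRF1 motif and the GABPA letters, and SDHD alone held the ESRRA letters TCAAGGTCA (1.59% of members, against 0.151%). COX7B, COX7A2 and ATP5G2 held none of the 4 in this window. Of the 4 examples below, the first 2 are from genes that fell and the others from complex I genes that did not pass the test, and capitals mark the match.

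UQCR11, NRF1 motif as its reverse complement, chr19:1605473-1605500, minus strand: cctccccgcGCGCGTGCGCgccgcggcc

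SDHD, NRF1 motif, chr11:112086754-112086781, plus strand: gctgtgtttGCGCATGCGCgacgggtgt

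NDUFA3, YY1 letters, chr19:54102867-54102892, plus strand: gcggagacaAAGATGGCtgcgagtaa

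NDUFS4, YY1 letters, chr5:53560651-53560676, plus strand: gcctgcagcAAGATGGCggcggtgtc

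The regulators themselves were measured in the same libraries. Of 17 regulators of mitochondrial biogenesis and genome expression tested, 1 rose and 1 fell (8.39% and 8.91% of all genes). PPARGC1A, the coactivator PGC-1 alpha, was at 14.7 and 12.7 CPM in Ctrl and at 30.4 and 25.1 CPM in PRMT3-KD libraries, a log2 fold change of 1.02 ± 0.149 (SE; adjusted p = 0.0243, edgeR). TFAM, which packages and transcribes mitochondrial DNA, was at 72.8 and 70.5 CPM in Ctrl and at 32.7 and 26.2 CPM in PRMT3-KD libraries, a log2 fold change of -1.28 ± 0.131 (SE; adjusted p = 0.0177, edgeR). PPARGC1A and TFAM thus moved in opposite directions, and the groups did not overlap for either. NRF1 had a log2 fold change of -0.47 (adjusted p = 0.123), GABPA -0.03 (adjusted p = 0.852), YY1 -0.32 (adjusted p = 0.0505) and ESRRA 0.19 (adjusted p = 0.377, all edgeR). HIF1A, a regulator that shifts cells from respiration to glycolysis, was at 738.0 and 728.6 CPM in Ctrl and at 195.7 and 288.8 CPM in PRMT3-KD libraries (log2 fold change -1.60, adjusted p = 0.0204, edgeR).

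The 51 assembly factors, which build the complexes but are not part of them and include ATP5SL, had a median of 0.11 (0.17 with PRMT3-KD library 1 alone, 0.02 with PRMT3-KD library 2 alone), with 5 called higher and 3 lower (8.39% and 8.91% of all genes were called in these directions). The largest increase was that of TMEM70, an assembly factor of ATP synthase and complex I, at 13.3 and 13.9 CPM in Ctrl and 24.9 and 22.4 CPM in PRMT3-KD libraries (log2 fold change 0.80, adjusted p = 0.0221, edgeR). TIMMDC1 and NDUFAF2, for complex I, LYRM7, for complex III, and ATPAF2, for the F1 head, also rose, by 0.43 to 0.63. Their adjusted p were 0.0337, 0.0376, 0.0482 and 0.0439 in that order (edgeR). The calls of LYRM7 and ATPAF2 did not hold with DESeq2, which called 0 assembly factors of complex III and 0 of complex V higher. The largest decrease was that of COX10, which makes heme O on the way to the heme of complex IV, at 10.4 and 10.2 CPM in Ctrl and 6.38 and 5.56 CPM in PRMT3-KD libraries (log2 fold change -0.79, adjusted p = 0.0352, edgeR). COX11, which delivers copper to complex IV, also fell (-0.49, adjusted p = 0.0382), as did COA1 (-0.54, adjusted p = 0.0242, both edgeR).

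Among 7 tested electron carriers and feeders, 1 rose and 0 fell (8.39% and 8.91% of all genes). The gene that rose was ETFDH, which passes electrons from fatty acid oxidation to ubiquinone (log2 fold change 0.56, adjusted p = 0.0337, edgeR). Of 12 coenzyme Q genes, 1 rose and 0 fell, also beside 8.39% and 8.91% of all genes. The 1 that rose was COQ10B (0.60, adjusted p = 0.0214, edgeR). In the TCA cycle, which feeds the chain with NADH and succinate, 2 of 14 genes rose and 1 fell (8.39% and 8.91% of all genes). SUCLA2 rose by 0.45 (adjusted p = 0.0490) and DLD by 0.36 (adjusted p = 0.0369, both edgeR) on the log2 scale. Citrate synthase, CS, was at 216.9 and 215.7 CPM in Ctrl and at 123.0 and 130.2 CPM in PRMT3-KD libraries, a log2 fold change of -0.77 (adjusted p = 0.0160, edgeR). Of 11 genes of outer membrane and import, TIMM23 rose (0.38, adjusted p = 0.0408) and TOMM22 fell (-0.72, adjusted p = 0.0178, both edgeR), again beside 8.39% and 8.91% of all genes.

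The 77 tested mitochondrial ribosomal proteins, which translate the mitochondrial-encoded subunits, had a median of 0.03, with 5 called higher and 4 lower (8.39% and 8.91% of all genes). MRPS6 had the largest increase, from 49.1 and 49.4 to 98.2 and 111.1 CPM (log2 fold change 1.09, adjusted p = 0.0148, edgeR), and MRPL12 the largest decrease, from 64.9 and 63.7 to 36.3 and 25.1 CPM (log2 fold change -1.07, adjusted p = 0.0344, edgeR). Over all 188 tested genes of these related mitochondrial lists, ATP5SL not counted, 16 were called higher and 10 lower (8.39% and 8.91% of all genes) and the median was 0.03. With library totals in place of TMM factors, 4 were called higher and 8 lower (5.62% and 7.48% of all genes). That median was -0.04 without PRMT3-KD library 1 and 0.14 without PRMT3-KD library 2. Of the 17 glycolysis enzymes, which were listed for comparison, 7 were called lower and 1 higher (8.91% and 8.39% of all genes). The 1 called higher was HK1 (0.34, adjusted p = 0.0409, edgeR). The median of the 17 was -0.32, and PGK1 had the largest decrease (log2 fold change -1.89, adjusted p = 0.0140, edgeR). The difference between the lists was not tested.

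**Figure D4:**
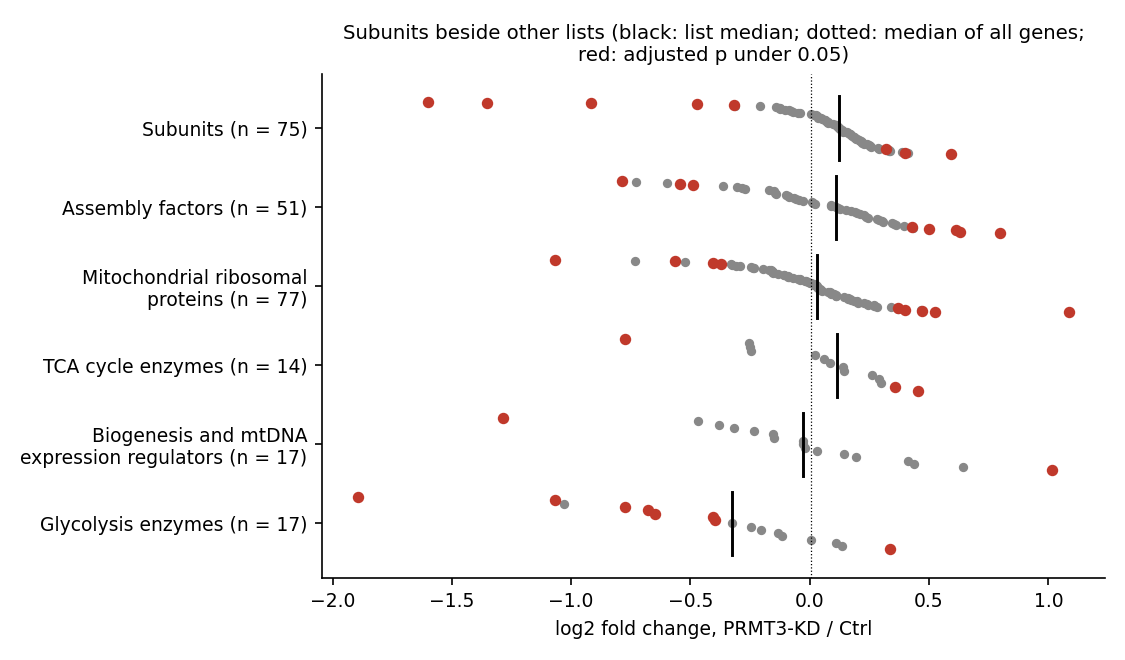
The log2 fold change (x axis) of every tested gene is drawn for the subunits and 5 other lists, with red points for adjusted p under 0.05, black lines for the list medians and a dotted line for the median of all genes. The subunits have a median of 0.12, the assembly factors 0.11, the mitochondrial ribosomal proteins 0.03 and the glycolysis enzymes -0.32.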

How the data were processed

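RNA-seq was from 2 Ctrl and 2 PRMT3-KD U251 libraries, grouped by their labels. The authors deposited unnormalized gene counts, made with TopHat on hg19 and Cufflinks. CASAVA and DESeq2 are also listed in the submitters' processing notes, and versions, annotation and strand setting are not given in the sources used here. Of 15576 entries, 1 duplicate was removed. The count analysis used edgeR 4.0.16 under R 4.3.3 (filterByExpr with a minimum count of 10 and a total of 15, TMM, glmQLFit, glmQLFTest), limma 3.58.1 and DESeq2 1.42.0. Benjamini-Hochberg adjustment ran over 13172 genes. Depth limits the precision of genes with few counts.

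GENCODE 44 (on GRCh37) held 99.904% of the identifiers. 3′ UTRs and transcript lengths are those of the canonical transcript, and promoters are from RefSeq. Python 3.11.15 with pandas 2.3.3 and NumPy 2.4.6 was used for members, sums and sequence matches.

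The members, gene lists and searched letters were chosen with earlier results of these data known. Values are given for every called member, the highest and lowest subunit of each complex (mean CPM 10 or more), the highest per length, isoform sets, SDH and c ring genes, the largest called changes of each list and 6 regulators or carriers. Other genes were named after their values were seen. Alternatives were another test, scaling, filter, threshold, the replicate number as a block, and each library left out.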

Additional observations from a re-analysis of the deposited data

How the results depend on the processing

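COX7B, UQCR11 and SDHD were called in all 8 alternatives that used all 4 libraries, NDUFB5 and COX7A2 in 7, NDUFC2 in 6, and UQCRB and ATP5G2 in 4. COX6C, not called in the main fit, was called in 3 of the 8, and SDHA and ATP5J2 in 1 each. The 3 members called higher became 0 with library totals only, 1 with the replicate number as a block and 1 with over 1.5-fold required. They became 4 with DESeq2-style size factors in edgeR, upper-quartile scaling, at least 10 counts in every library, or limma-voom. The 5 called lower became 3 with the block, 3 with over 1.5-fold and 6 with at least 10 counts in every library. DESeq2, with its own size factors, called 2 members higher and 4 lower. With library totals only, the members' median was 0.09 and that of all genes -0.03, and 42.9% of the calls over all genes were higher, against 48.5%. Of the related mitochondrial genes, the 16 called higher became 4 with library totals only, 5 with the block, 6 with over 1.5-fold and 18 with limma-voom. The 10 called lower became 5 with over 1.5-fold and 13 with at least 10 counts in every library. With each library left out in turn, members called higher ranged from 0 to 48 and lower from 0 to 17, related genes from 0 to 89 and from 0 to 75, and PRMT3 from -3.61 to -2.68, with adjusted p of 0.0764 and 0.0604 (edgeR) without a Ctrl library. With a library left out, the sign of the log2 fold change turned for 16 of the 78 members, 0 of them among the 8 called. Among genes named with a level, directions turned for ATP5B (-0.047 without PRMT3-KD replicate 1 and up to 0.186 over the libraries left out), CYC1 (0.116 without PRMT3-KD replicate 2 and down to -0.328) and the complex III level (-0.0661 as a mean of log2 CPM). The cause was not tested. Replicate numbers are shared by the groups, and the deviations of same-numbered libraries had a correlation of 0.038 across genes. The Ctrl libraries differed by little more than counting error (chi-square per degree of freedom 1.41), so this correlation cannot show whether libraries were paired. The main test treated them as unpaired. With 2 libraries a group, values within about 2 standard errors of 0 could not be told from no change. Some values beyond 2 standard errors did not pass either. COX8A (-0.21, standard error 0.0828) had an unadjusted p of 0.0591, and COX6C (0.33, standard error 0.0749) an adjusted p of 0.0508 (both edgeR).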

Other observations

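Some subunits and inhibitors of the complexes carry symbols outside the series used here. USMG5, a small subunit of the ATP synthase membrane part, was at 44.4 and 43.1 CPM in Ctrl and at 59.1 and 52.7 CPM in PRMT3-KD libraries (log2 fold change 0.35, standard error 0.0933, adjusted p = 0.0682, edgeR). NDUFAB1, the acyl carrier protein of complex I, had a log2 fold change of 0.25 (adjusted p = 0.244), C14orf2, another small ATP synthase subunit, 0.16 (adjusted p = 0.323), ATPIF1, the inhibitor of the ATP synthase, 0.01 (adjusted p = 0.912), and NDUFA4L2, a paralog of NDUFA4 known to respond to HIF1A, 0.29 at about 1 CPM (adjusted p = 0.540, all edgeR). edgeR and DESeq2 each called 0 of these genes, and edgeR gave 1 higher at an unadjusted p under 0.05.

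The median spread between the PRMT3-KD libraries was smaller for the members than for all genes tested, and about the same for the glycolysis enzymes. The median absolute log2 difference between the 2 PRMT3-KD libraries was 0.119 for the 78 members and 0.236 for all genes tested. For the 17 glycolysis enzymes it was 0.121. Between the 2 Ctrl libraries it was 0.0405 for the members and 0.0530 for all genes tested, which include genes with 0 counts in a library. The highest count of any member was 13756, and the lowest of any tested member was 148.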
